A study of Mus musculus with 4 samples.

Results

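The circadian clock genes examined here were *Arntl*, *Clock*, *Per1*, *Per2*, *Per3*, *Cry1*, *Nr1d1*, *Nr1d2*, *Dbp* and *Tef*, 10 of the 24391 gene symbols in the count table, found by their symbols. All 10 passed the filter on low counts, which left 13668 genes for testing. Their RNA was counted in MEFs, fibroblasts grown from mouse embryos at E13.5, which the protocol describes as arrested in quiescence. The labels give all 4 libraries the genotype Phf2 flox/flox, ERCre/+, in which the floxed gene is deleted once the inducible recombinase CreERT2, expressed from the Rosa26 locus, is activated by 4-hydroxytamoxifen (4-OHT). The 2 libraries called wild-type (WT) are described as without tamoxifen and the 2 libraries called *Phf2* KO as treated with it, so loss of Phf2, Cre activity and 4-OHT cannot be told apart. One protocol text, with 0.5 µM 4-OHT for 7 days in medium with 2% charcoal-treated serum, stands on all 4 samples, the WT ones included, and it describes primary as well as immortalized MEFs without saying which were sequenced. The hour of harvest and any synchronization of the cells are not given in the sources used here, and each culture was sampled once, so a change of phase and a change of amplitude of the clock cannot be told apart.

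The mammalian clock is a feedback loop of transcription that runs in most cells, fibroblasts in culture included. A dimer of Bmal1, the product of *Arntl*, and Clock binds E-boxes and activates the *Per* and *Cry* genes, whose proteins return to the nucleus and inhibit the dimer. In a second loop the same dimer activates *Nr1d1* and *Nr1d2*, which encode the nuclear receptors REV-ERBα and REV-ERBβ, and these repress *Arntl* through elements that ROR receptors also bind. *Dbp* and *Tef* encode PAR bZIP factors that carry the rhythm to output genes through D-boxes. Since *Arntl* peaks at the opposite phase to the genes that its protein activates, a shift of the clock can appear as opposite changes in these arms, depending on the phase at harvest. This holds for *Arntl*, and *Clock* is placed beside it only as the partner in the dimer. Serum and glucocorticoids set the phase of the clock in fibroblasts.

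None of the 10 clock genes was called different between WT and *Phf2* KO MEFs by edgeR's quasi-likelihood test. The estimates ran from -0.11 to 0.13 log2 units for 9 genes, with 5 above 0 and 5 below among the 10, and the exception was *Per2*, at -0.33. An adjusted p-value under 0.1 was used to call genes, which 0.00732% of all genes tested passed, and 0 of the 10 passed it. At an unadjusted p-value under 0.05 there were also 0 of the 10, against 4.21% of all genes tested. DESeq2 called 0 of the 10 and 0.468% of all genes tested, and limma called 0 of the 10 and 0.0% of all genes. With shares this low, counts of 0 among 10 genes do not set the clock genes apart from the rest. The 95% intervals of 9 of the 10 lay inside 0.5 log2 units on either side of 0, so that larger changes lay outside the intervals of these genes. For comparison, *Phf2* itself had 3244 and 3680 counts in the WT libraries (replicates 1 and 2, an order kept for every gene that follows) against 1454 and 2158 in the *Phf2* KO libraries, and its log2 fold change was -0.79 with a standard error (SE) of 0.14. This check covers the whole gene and does not separate the floxed exons from the others, and *Phf2* was not called in this fit either (edgeR quasi-likelihood, adjusted p = 0.999), although DESeq2 called it (adjusted p = 0.00321).

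Libraries held between 21094743 and 26094268 counts, and 3 counts were worth between 0.116 and 0.145 normalized CPM (counts scaled by library size and composition), which covers counting error only. Whether libraries of one group came from separate embryos is not stated, so p-values measure the spread between these libraries. Fibroblast markers (10 genes, among them *Col1a1* and *Col3a1*) summed to between 59842 and 71802 CPM, against 0.483 to 0.998 CPM for epithelial, 9.53 to 22.1 for endothelial, 14.2 to 53.6 for muscle and 80.4 to 96.8 CPM for neural markers. Macrophage markers, 13 of which were in the table, summed to 3888 and 855 CPM in the WT libraries against 4454 and 1352 CPM in the *Phf2* KO libraries (replicates 1 and 2). None of them was called without a block. With the replicate number as a block, 8 of 13 were called higher, against 11.0% of all genes tested called in either direction. Their part in the values of the clock genes was not tested.

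All 10 clock genes were detected in every library, at levels between the low and the upper part of the genes tested. Counts were divided by exonic length on mm9 to compare genes, and are given as CPM per kb, averaged over the 4 libraries with their SD (n = 4). *Nr1d1* was the most abundant, at 22.5 ± 1.42 CPM per kb, followed by *Tef* at 18.0 ± 1.05, *Dbp* at 14.3 ± 0.933 and *Per1* at 9.17 ± 0.548 CPM per kb. *Arntl* (5.39 ± 0.349 CPM per kb) and *Clock* (5.34 ± 0.469 CPM per kb), whose proteins form one dimer, did not differ beyond the range of their libraries. Below them, *Nr1d2* (3.97 ± 0.388 CPM per kb) overlapped in range with *Per3* (3.46 ± 0.374 CPM per kb), and *Per3* with *Cry1* (3.42 ± 0.164 CPM per kb). *Per2* was far below the others, at 0.721 ± 0.104 CPM per kb. The median over 12486 genes with an annotated length was 5.79 CPM per kb, so that the *Per* genes lay on both sides of it, with 60.9% of genes below *Per1* and 15.7% below *Per2*. This order holds for MEFs at the time of harvest alone, since the levels of most of these genes vary with the phase of the clock.

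Promoter windows of the clock genes were searched for the elements named above. RefSeq promoter windows (GRCm38.p6, from 250 bases before the annotated start to 50 after it) were at hand for 9 of the 10 genes, in 14 windows, and *Per2* had none. They were searched on both strands for the E-box CACGTG, the E′-box CACGTT, the D-box TTANNTAA and TAGGTCA, the core of the element bound by ROR and REV-ERB receptors. The matches are shown because the arms compared here are named after these elements. The letters of the motifs are in capitals on the strand of the gene, where an E′-box can read AACGTG, and positions count from 1 at the annotated start and backwards from -1 before it.
*Per1*, E-box at -166, chr11:69098773-69098798, plus strand: cacccaagtcCACGTGcagggatgtg
*Cry1*, E′-box at -79 and E-box at -60, chr10:85185099-85185143, minus strand: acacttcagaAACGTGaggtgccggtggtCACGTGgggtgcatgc
*Nr1d1*, E′-box at -28, chr11:98775390-98775415, minus strand: cacagatctcAACGTGccggctgctg
*Per3*, D-boxes at -205 and -158, chr4:151044806-151044880, minus strand: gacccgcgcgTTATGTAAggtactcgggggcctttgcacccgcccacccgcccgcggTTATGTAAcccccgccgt
*Tef*, D-box at -174 and E-box at -127, chr15:81802489-81802561, plus strand: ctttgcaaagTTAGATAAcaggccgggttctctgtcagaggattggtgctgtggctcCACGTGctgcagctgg
*Tef* at another annotated start, E-box at -138, chr15:81811266-81811291, plus strand: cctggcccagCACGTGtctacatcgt
*Arntl*, ROR element core at 31, chr7:113207531-113207557, plus strand: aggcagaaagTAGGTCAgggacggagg

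An E-box stood in 4 of the 14 windows (of *Per1*, *Cry1* and *Tef*), against 7.15% of all 32851 windows, and an E′-box in 2 of the 14 (of *Cry1* and *Nr1d1*), against 4.68%. D-boxes were in 2 of the 14 windows (of *Per3* and *Tef*), against 6.0% of all windows, and the ROR element core in 1 (of *Arntl*), against 2.61%. No E-box was found in the windows of *Per3*, *Nr1d1*, *Nr1d2*, *Dbp*, *Arntl* or *Clock*, and no motif of the 4 in those of *Nr1d2*, *Dbp* and *Clock*. A match is a description of these letters in these windows, and binding was not measured.

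**Figure D1:**
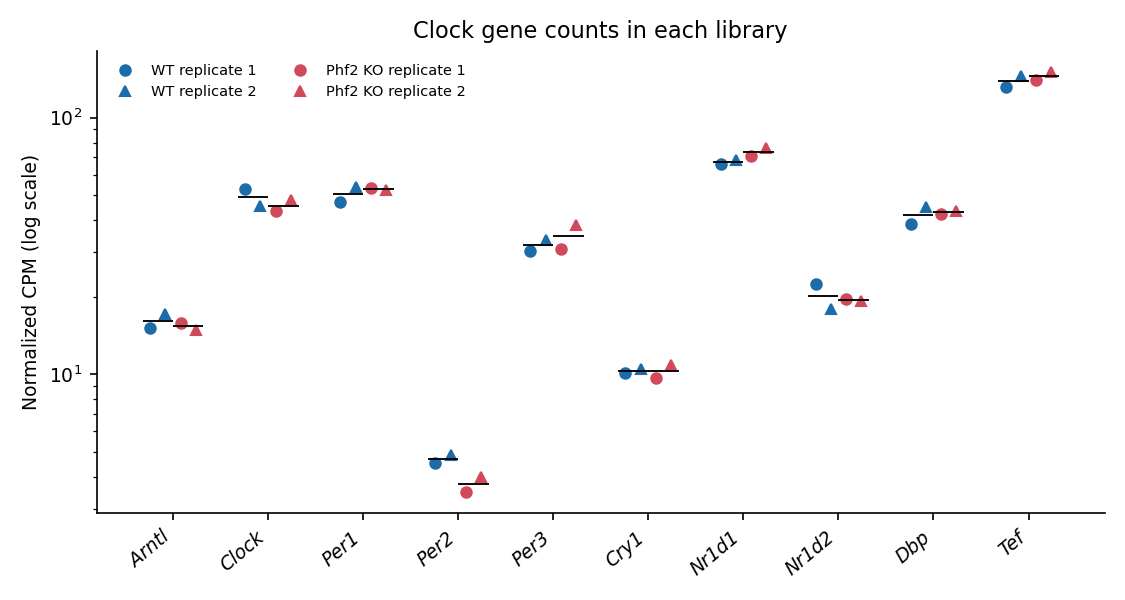
Normalized CPM (y axis, log scale) of the 10 clock genes (x axis) in each of the 4 libraries, with circles for replicate 1, triangles for replicate 2, blue for WT, red for *Phf2* KO and short lines at the mean of each group (n = 2). The libraries of a gene lie close together against the distance between genes, from 3.47 CPM for *Per2* to 150.9 CPM for *Tef*, and the groups are apart for *Per2* and *Nr1d1* alone.

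The positive arm was described first. *Arntl*, which encodes Bmal1, maps to chromosome 7, 120350979 to 120457636, on the plus strand (mm9, as for all gene positions). It had 366 and 446 counts in the WT libraries against 328 and 358 in the knockouts, or 15.2, 17.2, 15.8 and 14.9 normalized CPM. The groups overlapped, with the highest and lowest library both of replicate 2. The log2 fold change was -0.08 (SE 0.13, 95% interval -0.42 to 0.27). *Clock*, on chromosome 5 from 76639992 to 76733817 on the minus strand, encodes the partner of Bmal1. It had 1273 and 1170 counts in the WT libraries against 897 and 1145 in the knockouts, or 52.8, 45.1, 43.3 and 47.6 CPM. Here too the groups overlapped, and the highest and the lowest value were both in replicate 1. The log2 fold change of *Clock* was -0.11 (SE 0.12, 95% interval -0.43 to 0.21).

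The period genes encode the repressors of the loop, of which *Per1* and *Per2* are also induced acutely by signals that set the clock. *Per1* (chromosome 11, 68908719 to 68923462, plus strand) had 1135 and 1395 counts in the WT libraries against 1105 and 1258 in the knockouts. These were 47.1, 53.8, 53.3 and 52.3 CPM, so that both *Phf2* KO libraries lay between the WT libraries. Its log2 fold change was 0.07 (SE 0.10, 95% interval -0.21 to 0.34).

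*Per2* (chromosome 1, 93312561 to 93355907, minus strand) had the fewest counts, 109 and 126 in the WT libraries against 72 and 96 in the knockouts, or 4.52, 4.86, 3.47 and 3.99 CPM. Both *Phf2* KO libraries were below both WT libraries. The log2 fold change of -0.33 (SE 0.19, 95% interval -0.84 to 0.19) corresponds to 0.797 of the WT level, with an interval from 0.559 to 1.14. It was not called (edgeR quasi-likelihood, adjusted p = 0.999). Among all genes tested, 84.5% had a smaller absolute log2 fold change than *Per2*. *Per3* (chromosome 4, 150377761 to 150418774, minus strand) had 730 and 869 counts in the WT libraries against 640 and 918 in the knockouts, or 30.3, 33.5, 30.9 and 38.2 CPM. The groups overlapped and replicate 2 was the higher library in each. Its log2 fold change was 0.12 (SE 0.14, 95% interval -0.26 to 0.49).

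*Cry1* encodes a cryptochrome, the other repressor of the Bmal1 and Clock dimer, and peaks later than the *Per* genes. It maps to chromosome 10 from 84594447 to 84647799 on the minus strand. It had 245 and 273 counts in the WT libraries against 201 and 261 in the knockouts, or 10.2, 10.5, 9.70 and 10.9 CPM. The *Phf2* KO libraries lay on either side of both WT libraries. The log2 fold change of *Cry1* was -0.01 (SE 0.15, 95% interval -0.39 to 0.38).

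For the REV-ERB genes of the second loop, *Nr1d1* showed both *Phf2* KO libraries above both WT libraries. *Nr1d1* maps to chromosome 11 from 98629246 to 98636647 on the minus strand and had 1590 and 1767 counts in the WT libraries against 1467 and 1833 in the knockouts, or 66.0, 68.1, 70.8 and 76.3 CPM. The log2 fold change of 0.13 (SE 0.084, 95% interval -0.09 to 0.35) was not called, and 53.3% of all genes tested had a smaller absolute change. Leaving out *Phf2* KO replicate 2 gave 0.08, and leaving out replicate 1 of that group gave 0.18. *Nr1d1* overlaps *Thra*, a thyroid hormone receptor gene on the opposite strand, over 263 exonic bases. The alignment was strand-specific but whether the counting used strand is not stated, so reads of this stretch are uncertain. *Thra* had a log2 fold change of 0.03 (SE 0.14). *Nr1d2* (chromosome 14, 19036568 to 19071641, minus strand) had 544 and 466 counts in the WT libraries against 408 and 463 in the knockouts. These were 22.6, 18.0, 19.7 and 19.3 CPM, both *Phf2* KO libraries lying between the WT libraries, with a log2 fold change of -0.06 (SE 0.15, 95% interval -0.45 to 0.34).

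The output factors encode transcription factors of the PAR bZIP family. *Dbp* (chromosome 7, 52960458 to 52965525, plus strand), a gene whose transcript swings widely over the day in tissues, had 927 and 1164 counts in the WT libraries against 875 and 1045 in the knockouts. These were 38.5, 44.9, 42.2 and 43.5 CPM, and both *Phf2* KO libraries lay between the WT libraries. Its log2 fold change was 0.04 (SE 0.11, 95% interval -0.26 to 0.34). *Dbp* shares 491 exonic bases with *Sphk2* on the opposite strand, which had a log2 fold change of 0.13 (SE 0.11). *Tef* (chromosome 15, 81632851 to 81657291, plus strand) had 3169 and 3766 counts in the WT libraries against 2900 and 3627 in the knockouts, or 131.5, 145.1, 140.0 and 150.9 CPM. The groups overlapped, and the log2 fold change was 0.07 (SE 0.096, 95% interval -0.18 to 0.33). An annotated gene on the opposite strand, *Gm17597*, overlaps *Tef* over 193 exonic bases.

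**Figure D2:**
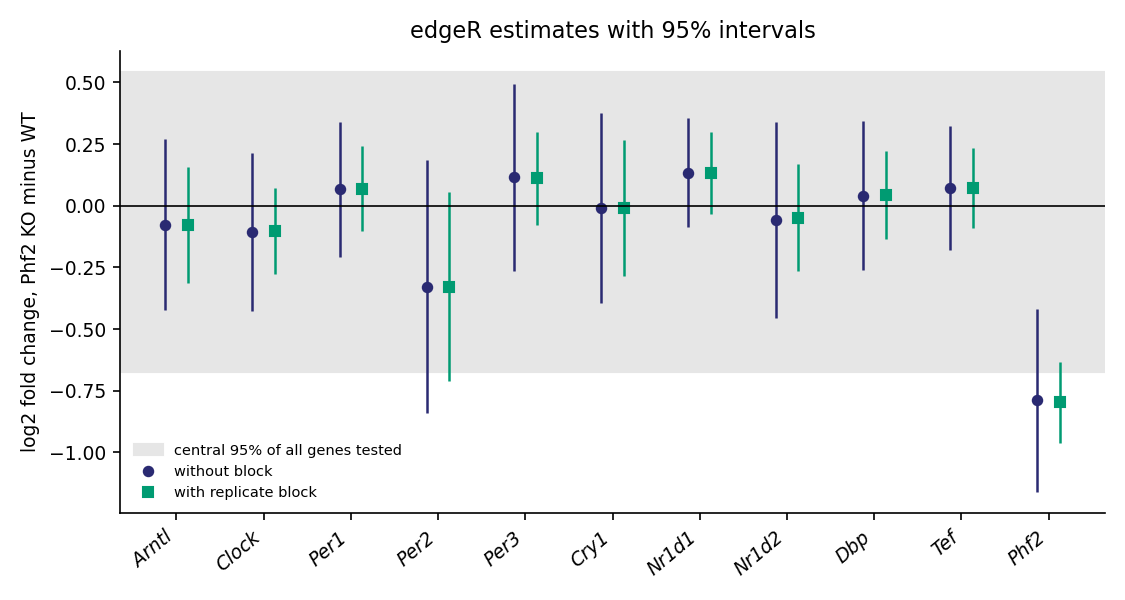
Log2 fold changes of *Phf2* KO minus WT (y axis) for the 10 clock genes and *Phf2* (x axis) from edgeR, with vertical lines for 95% intervals, blue circles without a block and green squares with the replicate number as a block. The grey band runs from -0.67 to 0.54 and holds the central 95% of all genes tested, and the intervals of the 10 clock genes include 0 in both fits.

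Without a block, 33.5% of all genes tested had *Phf2* KO and WT libraries that did not overlap, and 2 of the 10 clock genes did, *Per2* (lower) and *Nr1d1* (higher). With 2 libraries against 2, an exact permutation test of 1 gene cannot give a two-sided p below 0.333. *Phf2* KO was next compared with WT within each replicate number, as the labels number the libraries. The 95% intervals that follow are exact binomial ones on the counts and cover counting error only. In replicate 1, *Clock* had a log2 ratio of -0.29 (interval -0.41 to -0.16) and *Nr1d2* of -0.20 (interval -0.39 to -0.01), while *Per1* was at 0.18 (interval 0.06 to 0.30) and *Tef* at 0.09 (interval 0.02 to 0.16). In replicate 2 the ratios of these genes were 0.08 for *Clock*, 0.10 for *Nr1d2*, -0.04 for *Per1* and 0.06 for *Tef*. Thus 3 of the 4 genes with a ratio beyond counting error in replicate 1 had the other sign in replicate 2.

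The ratios beyond counting error in replicate 2 were those of *Arntl* (-0.21, interval -0.41 to -0.003), *Nr1d1* (0.16, interval 0.07 to 0.26) and *Per3* (0.19, interval 0.05 to 0.33). In replicate 1 they were 0.06, 0.10 and 0.03. *Per2* was at -0.38 in replicate 1 (interval -0.83 to 0.06) and -0.28 in replicate 2 (interval -0.68 to 0.11), each within counting error at its low counts. *Dbp* had ratios of 0.13 and -0.05 and *Cry1* of -0.07 and 0.05. In all, 6 of the 10 genes had opposite signs in the replicate numbers, against 37.2% of all genes tested. *Per3*, *Nr1d1* and *Tef* were higher and *Per2* was lower in both, but 0 of the 10 passed 0.3 log2 units in the same direction in both, against 9.15% of all genes tested.

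**Figure D3:**
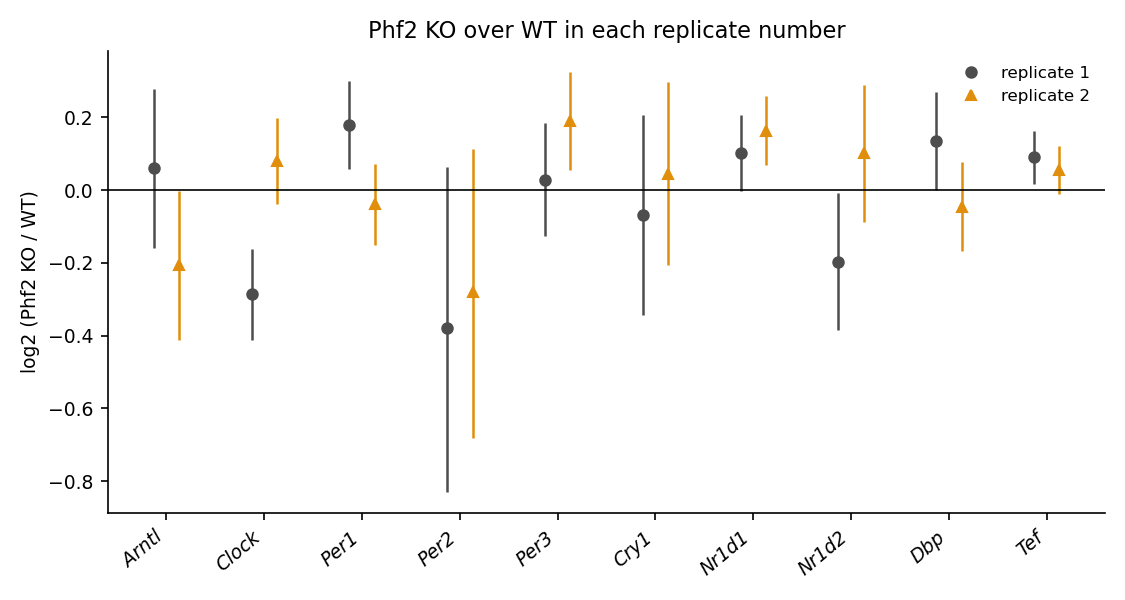
Log2 ratio of *Phf2* KO to WT (y axis) for each clock gene (x axis) in replicate 1 (grey circles) and replicate 2 (orange triangles), with 95% exact binomial intervals for counting error alone. *Arntl*, *Clock*, *Per1*, *Cry1*, *Nr1d2* and *Dbp* change sign between the replicate numbers, and no ratio is beyond 0.378 in size.

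Whether the opposing arms moved in opposite directions was examined by averaging log2 CPM within each arm. The first arm held 7 genes known as targets of E-boxes and D-boxes, a grouping that does not rest on the motif search (*Per1*, *Per2*, *Per3*, *Nr1d1*, *Nr1d2*, *Dbp* and *Tef*) and the second *Arntl* and *Clock*, with *Cry1* kept apart. The mean of the 7 driven genes was 5.07 and 5.15 log2 CPM in the WT libraries against 5.07 and 5.17 log2 CPM in the knockouts, so the groups overlapped. For *Arntl* and *Clock* the mean was 4.83 and 4.80 log2 CPM in the WT libraries against 4.71 and 4.74 in the knockouts, both *Phf2* KO libraries being lower. The driven mean of *Phf2* KO was 5.067 against 5.073 log2 CPM in WT in replicate 1, and 5.168 against 5.147 in replicate 2. The arm means therefore moved in opposite directions in replicate 2 alone, and the driven mean changed less than the positive one in both. Both statements hold for the 7 driven genes together. *Per2*, the gene with the fewest counts, entered the driven mean with log2 ratios of -0.38 and -0.28, each within counting error. In replicate 1 *Nr1d2* was also below 0, at -0.20, and the other driven genes lay between 0.03 (*Per3*) and 0.18 (*Per1*). The arm means were not computed without *Per2*. The difference between the arms, driven minus positive, averaged 0.30 ± 0.070 log2 units over the WT libraries against 0.39 ± 0.053 over the knockouts (SD, n = 2 each). By library it was 0.25 and 0.35 for WT against 0.36 and 0.43 for the knockouts.

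The arms were thus 0.10 log2 units further apart in *Phf2* KO, by 0.11 in replicate 1 and 0.08 in replicate 2, against a pooled SD of 0.062 between replicates. Without WT replicate 1 this value was 0.05 and without WT replicate 2 it was 0.15, and without *Phf2* KO replicates 1 and 2 it was 0.13 and 0.06. It has no test, since it is a score over chosen genes, and the 2 genes of the positive arm did not share a direction in either replicate. *Arntl*, the gene for which the opposite phase holds, had log2 ratios of 0.06 in replicate 1 and -0.21 in replicate 2. Those of *Clock* were -0.29 and 0.08. The lower positive mean in replicate 1 thus rested on *Clock*, while *Arntl* was higher there. The difference was not computed with *Arntl* alone as the positive arm. *Cry1* was at 3.35 and 3.40 log2 CPM in the WT libraries against 3.28 and 3.44 in the knockouts.

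**Figure D4:**
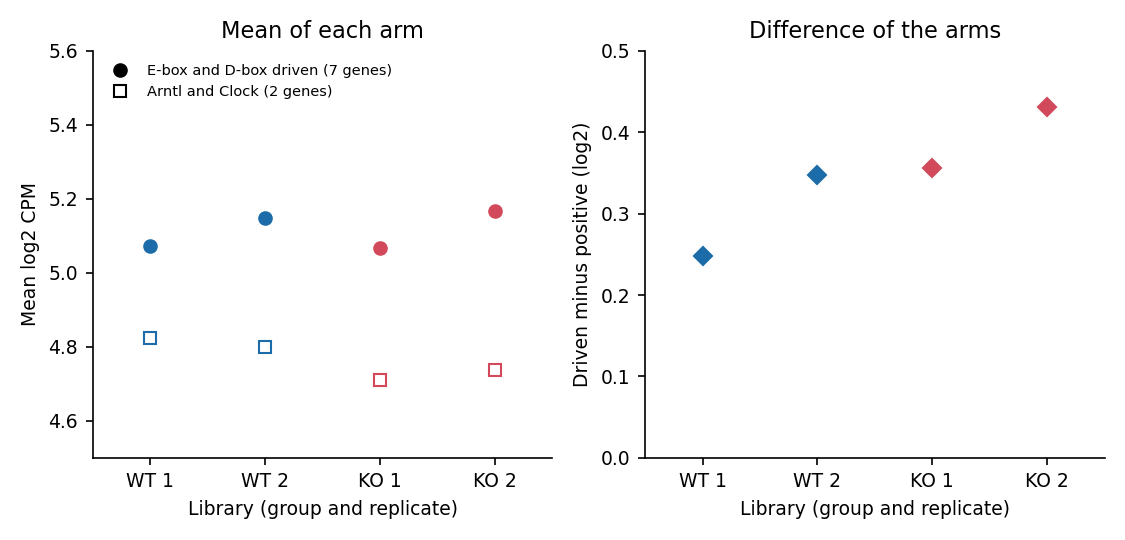
Left, mean log2 CPM (y axis) of the 7 E-box and D-box driven genes (filled circles) and of *Arntl* and *Clock* (open squares) in each library (x axis), blue for WT and red for *Phf2* KO. Right, the difference of the arms in log2 units, which runs from 0.25 in WT replicate 1 to 0.43 in *Phf2* KO replicate 2, with WT replicate 2 and *Phf2* KO replicate 1 close together at 0.35 and 0.36.

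The replicate numbers were then compared with each other. With genotype in the fit, edgeR called 26.2% of all genes tested between replicates 1 and 2, and 1 of the 10 clock genes, *Per3*, which was higher in replicate 2 by 0.22 log2 units (SE 0.096, edgeR quasi-likelihood, adjusted p = 0.0771). DESeq2 called 0 of the 10 and 9.96% of all genes tested. The difference of replicate 2 minus replicate 1 was above 0 for 8 of the 10 genes and below 0 for *Clock* (-0.05) and *Nr1d2* (-0.18, standard error 0.11). When *Phf2* KO was compared with WT with a replicate block, edgeR called 11.0% of all genes tested and 0 of the 10 clock genes (0 at an unadjusted p-value under 0.05, against 19.6% of all genes tested), the smallest adjusted p-value being that of *Per2* (adjusted p = 0.363). This fit has 1 residual degree of freedom, and the labels do not say that the numbers are pairs.

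Other genes of the clock pathway were taken from lists of loop genes, regulators of clock protein turnover, transcriptional co-regulators, clock-controlled genes and genes that respond to the signals which synchronize fibroblasts. Without a block, edgeR called 0 genes of each list. Medians of the log2 fold change were -0.0045 over 9 loop genes, 0.0030 over 14 turnover genes, -0.03 over 12 co-regulators, 0.05 over 11 clock-controlled genes and 0.02 over 12 synchronizing response genes, against 0.02 over the 10 clock genes and 0.01 over all genes tested. At an unadjusted p-value under 0.05 the counts were 0, 1, 0, 1 and 2 in the same order, against 4.21% of all genes tested. DESeq2 called *Junb* of the last list and no other gene of the 5 lists. With the replicate block, edgeR called 1, 2, 0, 2 and 6 genes, to be read against the 11.0% of all genes tested that it called.

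Among the 9 loop genes tested, *Npas2*, a paralog of *Clock*, had 150 and 135 counts in the WT libraries against 102 and 95 in the knockouts (log2 fold change -0.37, standard error 0.22). The largest estimate was that of *Hlf*, the third PAR bZIP factor, at 0.45 (SE 0.34), with 110 and 73 counts in the WT libraries against 124 and 98 in the knockouts. Neither was called with or without the block. *Bhlhe41*, which encodes the E-box repressor Dec2, had 1390 and 932 counts in the WT libraries against 1533 and 1128 in the knockouts, and its estimate was 0.37 without the block (SE 0.32, not called) and 0.37 with it (SE 0.088, edgeR adjusted p = 0.000869). *Cry2*, the second cryptochrome gene, was at 0.04 (SE 0.10) and *Rora*, an activator of *Arntl*, at 0.12 (SE 0.12).

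In the turnover list, 2 of 14 genes were called with the block, both higher in *Phf2* KO, a share near that of all genes. *Usp2*, which encodes a deubiquitinase and is itself a clock output, had 446 and 525 counts in the WT libraries against 552 and 603 in the knockouts, with an estimate of 0.42 in both fits (SE 0.11 in each, edgeR adjusted p = 0.00286 with the block). *Csnk1e*, which encodes a casein kinase that phosphorylates Per proteins, was at 0.29 in both fits (SE 0.13 without the block and 0.083 with it, edgeR adjusted p = 0.00875 with the block). The related kinase gene *Csnk1d* was at 0.01 (SE 0.10) and was not called. None of the 12 co-regulator genes was called with the block, *Timeless* having the largest estimate (-0.33, standard error 0.25).

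Of the clock-controlled genes, *Klf15* was higher (0.39, SE 0.12, adjusted p = 0.0269) and *Klf10* lower (-0.53, SE 0.14, adjusted p = 0.00453) in *Phf2* KO in the edgeR fit with the replicate block. Without the block their estimates were 0.39 (SE 0.12) and -0.56 (SE 0.23), and neither was called. *Klf10*, a Krüppel-like factor gene, had 360 and 267 counts in the WT libraries against 164 and 222 in the knockouts, with log2 ratios of -0.91 in replicate 1 and -0.16 in replicate 2. *Wee1* and *Nampt*, which are E-box targets, were at -0.03 (SE 0.26) and -0.18 (SE 0.20).

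The synchronizing response list held immediate early and glucocorticoid-induced genes, since *Per1* and *Per2* respond to the same signals. With the block, *Fos*, *Junb*, *Egr1*, *Ier2* and *Dusp1* were called higher and *Nr4a1* lower in *Phf2* KO, 6 of 12 genes, against 11.0% of all genes in that fit. Without the block edgeR called 0 of the 12. The list was chosen with earlier results of these data known, so its share is a description and not a test. *Junb*, an AP-1 subunit gene, had 850 and 944 counts in the WT libraries against 1156 and 1208 in the knockouts (edgeR log2 fold change 0.57 without a block, SE 0.10), and DESeq2 called it without a block (adjusted p = 0.0313). *Dusp1*, a phosphatase gene of MAP kinases, had the largest estimate without a block at 0.74 (SE 0.38), from 900 and 1915 counts in the WT libraries against 1572 and 2648 in the knockouts. Not called in either fit were *Tsc22d3* (0.06, standard error 0.10), *Fkbp5* (-0.07, standard error 0.27) and *Sgk1* (-0.26, standard error 0.12). The same held for the immediate early gene *Fosb* (-0.02, standard error 0.23), *Crem* (-0.09, standard error 0.18) and *Zbtb16* (-0.04, standard error 0.84). The list therefore does not divide fully into called immediate early genes and uncalled others. This rests on *Fosb*, which had 54 and 58 counts in the WT libraries against 45 and 54 in the knockouts. At such low counts a change could be missed. Beside these, *Per1* was at 0.07 and *Per2* at -0.33, and whether they differ from the immediate early genes was not tested.

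**Figure D5:**
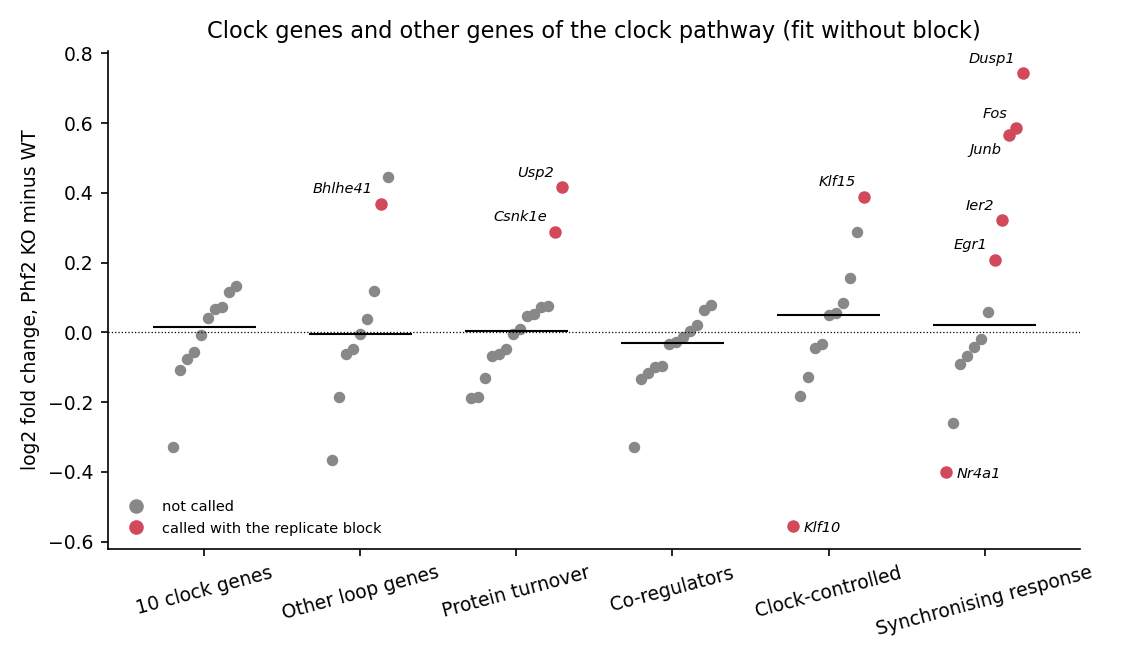
Log2 fold changes of *Phf2* KO minus WT (y axis) from the edgeR fit without a block, for the 10 clock genes and for the genes tested in 5 other lists (x axis), with a line at the median of each. Red points with names were called by edgeR with the replicate block and not without it, and none of the 10 clock genes is among them.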

How the data were processed

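RNA-seq counts of 2 WT and 2 *Phf2* KO libraries were used. Single reads of 50 nt had been trimmed (Trim Galore), freed of ribosomal RNA (bowtie2), mapped to mm9 (STAR, reverse stranded) and assigned to genes (featureCounts) by the authors, who deposited raw counts. A deposited DESeq2 result of the same comparison (fold changes and p-values) was not used. Versions and the annotation release are not given in the sources used here.

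Counts were analysed with edgeR 4.0.16 in R 4.3.3 (filterByExpr, TMM, glmQLFit and glmQLFTest, Benjamini-Hochberg over 13668 genes, threshold 0.1). Standard errors are the absolute log2 fold change over the square root of F. DESeq2 1.42.0, limma 3.58.1 (voom), other scalings and filters, the replicate block and leaving out each library were alternatives. The fits were also run on simulated counts, but the outcome is not given here and no result above rests on it. Log2 CPM used a prior count of 0.5. Positions and exonic lengths came from GENCODE annotation of NCBIM37 (mm9), with Python 3.11.15, pandas 2.3.3 and SciPy 1.17.1. Members, lists and the rule for naming genes (all members, *Phf2*, overlapping genes, genes called with or without the block and the largest estimate of each list) were chosen with earlier results of these data known. *Npas2*, *Cry2*, *Rora*, *Csnk1d*, *Wee1*, *Nampt*, *Tsc22d3*, *Fkbp5*, *Sgk1*, *Fosb*, *Crem* and *Zbtb16* were named beyond this rule after their values were seen.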

Additional observations from a re-analysis of the deposited data

How the results depend on the processing

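No clock gene was called in Phf2 KO against WT under DESeq2 or limma-voom, DESeq2's size factors, library size alone, either other filter, a threshold of 0.05, the replicate block in edgeR or DESeq2 (0 of 10 in each), or with each library left out. DESeq2 with the replicate block gave *Per2* and *Cry1* no adjusted p-value. The 2 genes whose groups did not overlap were also 2 with both other scalings. With no minimum change, 4 genes had the same direction in both replicate numbers in place of 0, and DESeq2 called 0 genes between replicates in place of 1. Of the fold changes of single genes, 112 kept and 8 turned their direction, each of the 8 with a library left out, where *Arntl* ran from -0.15 to 0.00067, *Clock* from -0.23 to 0.024, *Per1* from -0.013 to 0.15, *Per3* from -0.047 to 0.26, *Cry1* from -0.094 to 0.069, *Nr1d2* from -0.23 to 0.13 and *Dbp* from -0.054 to 0.14. *Per2* stayed between -0.43 and -0.23, *Nr1d1* between 0.08 and 0.18 and *Tef* between 0.01 and 0.13. The difference of the arms was between 0.09 and 0.10 under the other scaling and prior count, without *Tef*, without *Per1* and with *Cry1* added to the driven genes. It was not computed without *Per2*, the driven gene with the largest estimate in size, or with *Arntl* alone as the positive arm.

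The labels do not say that replicate numbers are pairs. The difference between replicates in WT followed that in *Phf2* KO (Pearson's r = 0.852 over 11556 genes with mean counts of 50 or more, a correlation across genes and not across independent samples). The replicate block leaves 1 residual degree of freedom and called 0 of the 10 clock genes. *Per2*, with counts between 72 and 126, had the widest interval.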
